A study of Mus musculus with 2 samples.

Results

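The 10 genes described here encode enzymes and close cofactors that write, copy or remove methyl groups on DNA, or that write the repressive Polycomb mark on histone H3. They were taken by name, as 10 of the 19550 genes in the count table. Their mRNA levels are given by annotated cell label, region and stage, in all cells and in cells scored as G1, the phase of the cell cycle before DNA is copied. The tissue came from the esophagus, the gastroesophageal squamocolumnar junction (GE-SCJ, where the squamous lining of the esophagus meets the columnar lining of the stomach) and the stomach of wild-type C57BL/6 mice. The stages were embryonic day 15 (E15), embryonic day 19 (E19), the pup at day 2 and the adult at 8 weeks. By the sample labels, 6 mice were used at E15, 2 at E19, 2 as pups and 3 as adults, while the methods describe 3 mice combined. Mice were pooled within a region and stage and share 1 oligonucleotide tag, and a region and stage therefore counts as a single sample. No difference could be tested, and every interval below is a 95% interval for counting error only. Of 12 combinations of region and stage, 11 were used, and adult stomach is not analysed here.

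Methylation of cytosine next to guanine is copied onto the new DNA strand by Dnmt1, which is brought to the replication fork by Uhrf1, a reader of DNA methylated on a single strand. Hells, a chromatin remodeller, opens nucleosomes for this step. Dnmt3a and Dnmt3b place methyl groups on sites that had none, and Tet1, Tet2 and Tet3 oxidise methylcytosine, which leads to its loss. Ezh2 and Ezh1 are alternative catalytic subunits of Polycomb repressive complex 2 (PRC2), which methylates lysine 27 of histone H3. Ezh2 is known as the form of dividing and embryonic cells, and Ezh1 as the form of resting and adult cells. The data are mRNA counts, and neither DNA methylation nor the histone mark was measured.

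The series holds 7808 cells and 107865155 unique molecular identifiers (UMIs, each standing for 1 captured mRNA molecule), with a median of 10424.5 UMIs per cell. Levels are given as CPM (counts scaled to 1e6), for which a gene's UMIs in all cells of a group were added up and divided by the group's total. Of the 9 deposited labels, the 2 squamous labels were joined. In each of the 8 resulting labels, the label's own marker list had its highest summed level. Fibroblast markers reached 20158 CPM in the fibroblast-type label, and smooth muscle markers reached 27168 CPM in the smooth muscle label. Groups of region, stage and label with fewer than 20 cells were left out, which kept 54 groups in all cells and 46 in G1 cells. Among adult-tagged G1 cells, 20 of 140 esophageal and 5 of 62 GE-SCJ squamous cells held at least 5 UMIs of H19, an imprinted gene known for high levels in fetal tissue. Without such cells, adult Dnmt3a in esophageal squamous cells was 13.8 in place of 14.8 CPM, and Ezh2 was 17.0 in place of 17.8 CPM.

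All 10 genes were detected, at levels that spanned a wide range. Dnmt3a had the most UMIs, 11028, or 102 CPM over all cells, with at least 1 UMI in 63.9% of cells. Ezh2 followed with 9469 UMIs (87.8 CPM), Tet3 with 8522 (79.0 CPM) and Dnmt1 with 6720 (62.3 CPM). Hells had 6307 UMIs, Tet2 5076, Uhrf1 4917, Tet1 2970 and Ezh1 1732. Dnmt3b was the lowest, with 560 UMIs, 5.19 CPM and a UMI in 6.24% of cells. The kit reads the 3′ end of each mRNA, so these levels do not grow with gene length, and a read does not tell apart the isoforms that differ at the 5′ end.

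Positions are those of the GENCODE M21 annotation on GRCm38, the build on which the authors counted. Dnmt1 lies at chr9:20907209-20959888 on the minus strand, Uhrf1 at chr17:56303321-56323486 on the plus strand and Hells at chr19:38930915-38971051 on the plus strand. Dnmt3a lies at chr12:3806007-3914443 and Dnmt3b at chr2:153649450-153687730, both on the plus strand. Tet1 lies at chr10:62804570-62908996, Tet2 at chr3:133463679-133545139 and Tet3 at chr6:83362373-83459084, all on the minus strand. Ezh1 lies at chr11:101191115-101226463 and Ezh2 at chr6:47530139-47595341, both on the minus strand.

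The members fell into those that were higher in S phase, when DNA is copied, and those that were not. At E15, the fibroblast-type label held 569 cells in G1, 315 in S and 173 in G2/M over the 3 regions. Uhrf1 stood at 10.9 CPM in G1, 133 in S and 94.9 in G2/M. Hells stood at 19.7 CPM in G1, 214 in S and 62.7 in G2/M. Both are replication-linked, and S cells were higher than G1 cells by 3.58 (3.18 to 4.00) on the log2 scale for Uhrf1 and by 3.43 (3.13 to 3.74) for Hells. Both also belong to the 43 genes of the standard S phase list of the scoring tool, so these ratios partly describe how the phase was assigned. Dnmt1, the maintenance methyltransferase, stood at 37.1 CPM in G1 and 145 in S, a log2 ratio of 1.96 (1.72 to 2.20). Ezh2 stood at 65.6 CPM in G1, 190 in S and 228 in G2/M, a log2 ratio of S over G1 of 1.53 (1.34 to 1.72). The other members had no ratio above 0.28. Dnmt3a was at -0.14 (-0.28 to 0.00), Tet3 at -0.08 (-0.31 to 0.14), Tet2 at -0.33 (-0.58 to -0.07), Tet1 at -0.48 (-0.74 to -0.22) and Ezh1 at -0.55 (-1.09 to -0.02). Thus 4 of the 10 members were at least 2-fold higher in S cells, where 3.17% of all genes with at least 100 UMIs over both phases were. The 10 include Dnmt3b, which did not reach this minimum, with 17, 21 and 19 UMIs in the 3 regions over all phases. The 4 include Uhrf1 and Hells, which are in the S phase list and so are not independent of the phase call.

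**Figure D1:**
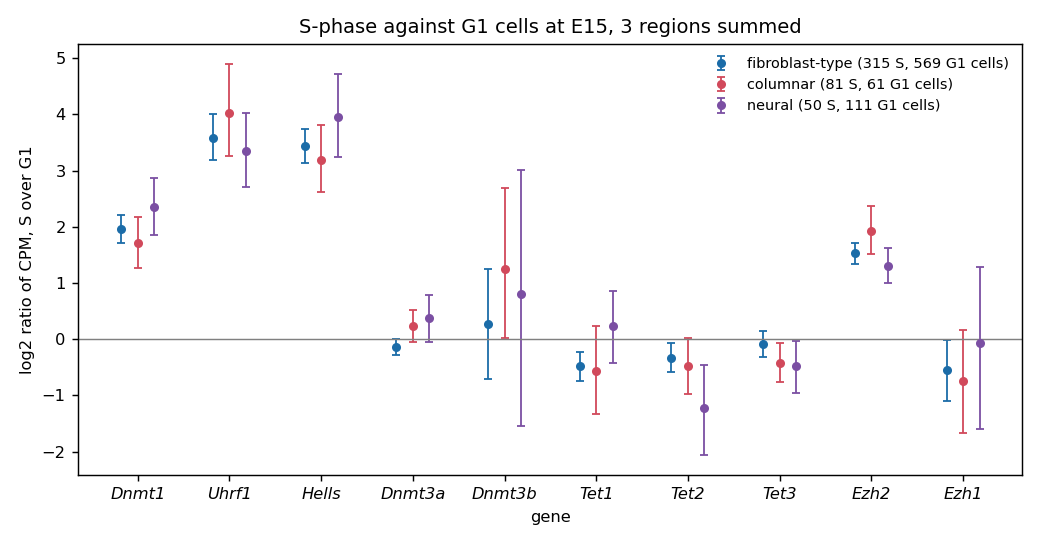
Log2 ratio of S over G1 cells at E15 for the 10 genes (vertical axis: log2 ratio, horizontal axis: gene), with the 3 regions summed, in the fibroblast-type, columnar and neural labels. Points are ratios of summed UMIs and bars are 95% counting intervals. Uhrf1, Hells, Dnmt1 and Ezh2 lie at 1.31 or higher in each of the 3 labels.

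The same 4 genes were highest in S cells of other labels. In 81 S and 61 G1 columnar cells at E15, the log2 ratio was 4.02 (3.26 to 4.91) for Uhrf1, 3.19 (2.63 to 3.81) for Hells, 1.93 (1.51 to 2.38) for Ezh2 and 1.70 (1.27 to 2.17) for Dnmt1. In 50 S and 111 G1 neural cells, it was 3.95 (3.25 to 4.72) for Hells, 3.35 (2.71 to 4.03) for Uhrf1, 2.35 (1.85 to 2.87) for Dnmt1 and 1.31 (1.00 to 1.61) for Ezh2. Tet2 went the other way in neural cells, at 73.1 CPM in G1 and 29.9 in S, a log2 ratio of -1.22 (-2.06 to -0.46). Dnmt3a was within its interval of 0 in both labels, at 0.23 (-0.06 to 0.52) in columnar and 0.37 (-0.04 to 0.78) in neural cells.

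These same 4 genes carry an E2F-type motif near a start site. E2F factors are known regulators of genes used in DNA replication. A search for TTTCCCGC, TTTCGCGC, TTTGCCGC and TTTGGCGC on both strands, in RefSeq windows from 250 bases before to 50 after each start site (GRCm38.p6), found a match in 4 of the 10 members (40%). It found a match in 704 of 27025 genes (2.605%) and in 12 of 31 genes of the S phase list that have a window (38.7%). The following stretches are shown because they lie before a RefSeq start site of each of the 3 maintenance genes, with the motif in capitals, and are written 5′ to 3′ on the strand of the gene.
Dnmt1: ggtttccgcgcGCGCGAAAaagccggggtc
Hells: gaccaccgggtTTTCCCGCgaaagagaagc
Uhrf1: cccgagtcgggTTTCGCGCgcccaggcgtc
The Dnmt1 stretch is chr9:20952824-20952853 on the minus strand, and its motif reads TTTCGCGC on the opposite strand, with its leftmost base at position -219 from the start site. The Hells stretch is chr19:38930917-38930946 on the plus strand, with the motif at -62, and the Uhrf1 stretch is chr17:56304117-56304146 on the plus strand, with the motif at -185. Positions count from the start site of the window that holds the match, which is 1 of 3 windows for Dnmt1, 1 of 2 for Uhrf1 and the single one for Hells, so all 3 stretches lie inside the gene spans given above, which begin at the outermost annotated start. The Dnmt1 window holds a further match, TTTGGCGC, that begins at position 33, and the match of Ezh2 begins at position 3. These follow the start site and are not shown. No match was found in the windows of Dnmt3a, Dnmt3b, Tet1, Tet2, Tet3 and Ezh1. A match is a run of letters, and binding was not measured.

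The share of cells in G1 differed between stages, so levels in all cells mix level and cycling. In the fibroblast-type label it was 61.7% in the esophagus, 48.9% in the GE-SCJ and 51.1% in the stomach at E15, and 94.7%, 97.6% and 94.9% in the pup. In smooth muscle it went from 53.7% at E15 to 99.2% in the pup, and in columnar cells from 30.2% to 84.8%, with regions summed. E15 and pup could be compared within G1 cells in 9 pairs of groups. These were fibroblast-type and smooth muscle cells of the 3 regions, columnar cells of the stomach, and squamous cells of the esophagus and GE-SCJ. The GE-SCJ columnar label had 13 G1 cells at E15 and was left out. The median log2 ratio of E15 over pup was 2.65 in all cells and 0.91 in G1 cells for Hells, 2.55 and 1.21 for Uhrf1, 1.81 and 0.77 for Ezh2, and 1.39 and 0.57 for Dnmt1. Many G1 pairs held few UMIs, and Uhrf1 in esophageal smooth muscle entered at -2.51 from 0 UMIs at both stages. Over pairs with at least 20 UMIs, the G1 median was 1.22 for Hells (4 pairs) and 1.88 for Uhrf1 (2 pairs). It was 0.94 for Ezh2 and 0.71 for Dnmt1 (8 pairs each). Of the genes that did not follow S phase, Dnmt3a had 0.68 and 0.91, Tet1 1.05 and 1.12, Tet2 -0.17 and 0.10, Tet3 0.00 and 0.09, Ezh1 -1.35 and -1.11, and Dnmt3b, with few UMIs, 0.40 and -0.27. For Uhrf1 and Hells, the smaller ratio in G1 cells is partly set by the G1 call, since both are in the standard S phase list. The G1 call was not free of cycling cells, since E15 fibroblast-type G1 cells still held Mki67 at 8.99 CPM and Top2a at 12.9 CPM.

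**Figure D2:**
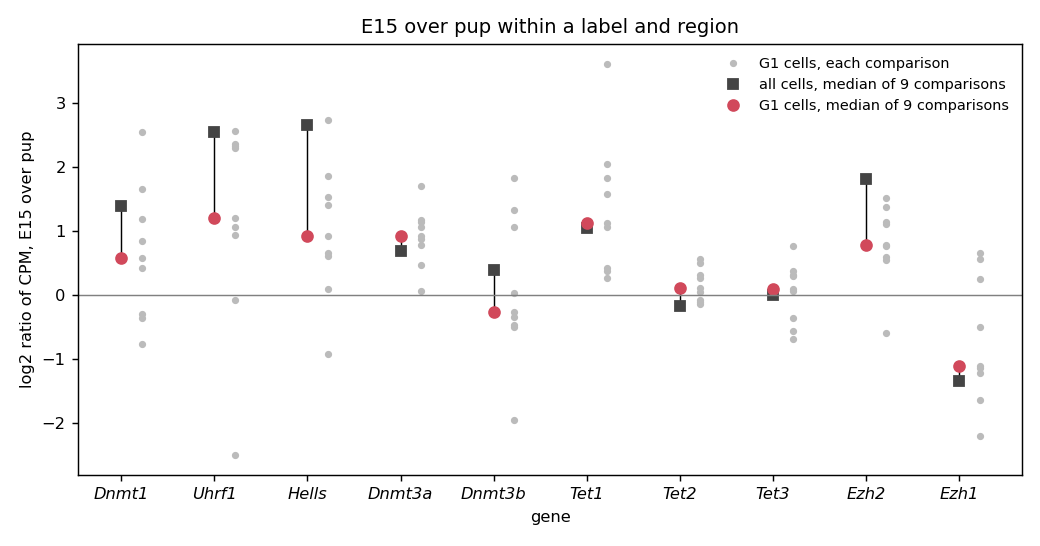
Log2 ratio of E15 over pup for each gene (vertical axis: log2 ratio, horizontal axis: gene). Squares are the median of the 9 pairs of groups in all cells, red circles the median in G1 cells, and grey dots the 9 single pairs in G1 cells. The medians of Hells, Uhrf1, Ezh2 and Dnmt1 are higher in all cells than in G1 cells. Many grey dots rest on few UMIs, and the lowest of Uhrf1 rests on 0 UMIs at both stages.

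Within G1 cells, most of the 90 pairs of gene and comparison rested on few UMIs. Of them, 65 had at least 20 UMIs over both stages. The interval of the ratio lay above 0, with E15 higher, in 23 of the 65 pairs (35.4%), where 22.4% of pairs did over all genes. It lay under 0, with the pup higher, in 6 of 65 (9.23%), where 13.4% did over all genes. Pairs with at least 100 UMIs over both stages numbered 28, and 5 of these were at least 2-fold lower in the pup, where 12.9% of such pairs were over all genes. They were Tet1 in stomach fibroblast-type cells, Dnmt3a in esophageal smooth muscle, and Dnmt1, Dnmt3a and Ezh2 in stomach columnar cells. By comparison, the same rule was met over all genes in the fibroblast-type label by 9.97% in the esophagus, 8.09% in the GE-SCJ and 8.14% in the stomach. In smooth muscle it was met by 10.7%, 6.49% and 8.98%, in stomach columnar cells by 17.5%, and in squamous cells by 31.9% in the esophagus and 15.9% in the GE-SCJ. In the 2 squamous comparisons, Tet3 was the sole member with 100 UMIs, and it was less than 2-fold different. No member was at least 2-fold higher in the pup by this rule, where 9.33% of pairs were over all genes (5.64 to 16.9% by comparison). Ezh1 reached 100 UMIs in 1 of the 9 comparisons, in stomach columnar cells, so the rule could not call it in the stroma. Without the minimum, fibroblast-type Ezh1 was 3.12-, 2.21- and 2.33-fold higher in the pup in the esophagus, GE-SCJ and stomach. The median ratio over all genes was between 0.10 and 0.55. Depth also differed, with a median in G1 fibroblast-type cells of 8552.5 to 9486.5 UMIs at E15 and 3862 to 5065.5 in the pup.

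The maintenance genes were low in G1 cells. For Uhrf1 and Hells, which are in the standard S phase list, this partly describes how G1 was called. In stomach columnar cells and in esophageal squamous cells all 3 were lower in the pup than at E15. In stomach columnar cells, Dnmt1 stood at 43.8 CPM (30.9 to 60.4) at E15, 26.8 (22.2 to 32.1) at E19 and 14.1 (11.8 to 16.7) in the pup, a log2 ratio of E15 over pup of 1.66 (1.10 to 2.19). Uhrf1 stood at 9.48, 5.96 and 1.70 CPM, a log2 ratio of 2.56 (1.21 to 3.81), and Hells at 16.6, 13.5 and 4.78 CPM, a log2 ratio of 1.86 (0.92 to 2.73). Each of them was highest at E15 and lowest in the pup. In GE-SCJ columnar cells, Dnmt1 stood at 31.8 CPM (26.0 to 38.5) at E19 and 15 (12.2 to 18.3) in the pup, a log2 ratio of 1.08 (0.67 to 1.49). In esophageal squamous cells, Dnmt1 stood at 43.0 CPM (26.3 to 66.4) at E15, 21.8 at E19, 6.44 (2.09 to 15) in the pup from 5 UMIs, and 23.9 (18.0 to 31.1) in the adult. The pup was the lowest of these 4 stages, and its log2 ratio to the adult was -1.66 (-3.16 to -0.44). In the same cells, the log2 ratio of E15 over pup was 2.55 (1.19 to 4.15) for Dnmt1, from 20 and 5 UMIs. It was 2.32 (0.60 to 4.41) for Uhrf1, from 11 and 3 UMIs, and 2.74 (0.85 to 5.20) for Hells, from 11 and 2 UMIs. In GE-SCJ squamous cells, Dnmt1 had 6 UMIs (12.4 CPM) in E15 cells and 7 (16.3 CPM) in pup cells, a log2 ratio of -0.36 (-2.06 to 1.30). Hells was at 10.4 and 9.33 CPM there, a ratio of 0.09 (-1.88 to 2.14), while Uhrf1 had 10 UMIs (20.7 CPM) and 1 UMI (2.33 CPM), a ratio of 2.29 (0.09 to 5.50). The E15 squamous groups held 34 G1 cells in the esophagus and 31 in the GE-SCJ.

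In the stroma, no log2 ratio of E15 over pup of the 3 maintenance genes, with 1 UMI added to each sum, had an interval that left 0. The added UMI lowers a ratio where the pup has fewer UMIs, and intervals without it are not given. These intervals therefore do not show that levels were equal. Dnmt1 in fibroblast-type G1 cells stood at 29.2, 24.9 and 20.6 CPM at E15, E19 and pup in the esophagus, at 37.3, 39.9 and 44.1 in the GE-SCJ and at 47.0, 39.9 and 29.5 in the stomach. In smooth muscle, Dnmt1 had a log2 ratio of 1.19 (-0.03 to 2.57) in the GE-SCJ, with 30.6 CPM at E15 and 12.3 in the pup, and of 0.84 (-0.23 to 2.01) in the stomach, with 34.9 and 18.4 CPM. In esophageal smooth muscle the sign was the opposite, at -0.77 (-2.14 to 0.83), from 19 and 5 UMIs. Between regions, Dnmt1 was higher in stomach than in esophageal fibroblast-type cells at E15, by 0.68 (0.17 to 1.19) on the log2 scale, and at E19, also by 0.68 (0.32 to 1.03). Hells had 2 to 5 UMIs and Uhrf1 0 to 2 UMIs in each pup fibroblast-type group, which left their ratios wide. The fibroblast-type ratios of Uhrf1 were 1.21 (-0.51 to 3.58) in the esophagus and 0.93 in the stomach. In the GE-SCJ its ratio was the largest, at 2.36 (-0.28 to 7.73), from 19 UMIs at E15 and 0 in the pup. With 3 counts set for the pup, that ratio would be 0.70. Those of Hells were 1.53, 0.91 and 0.61 in the esophagus, GE-SCJ and stomach.

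Dnmt3a, the main de novo methyltransferase here, was high in stroma and lower in epithelium, and within most of these labels it was higher at E15 than in the pup. Neural G1 groups held levels like those of the stroma, from 105 CPM (esophagus pup, 10 UMIs) to 181 (stomach pup, 18 UMIs). Esophageal fibroblast-type G1 cells held 161 CPM (144 to 180) at E15, 135 (125 to 145) at E19, 154 (124 to 190) in the pup and 100 (57.2 to 163) in the adult. Those of the GE-SCJ held 190 (169 to 214), 170 (156 to 186) and 109 (78.5 to 147), and those of the stomach 237 (214 to 262), 154 (141 to 168) and 128 (95.6 to 168). The esophagus was the region in which E15 and pup overlapped, with a log2 ratio of 0.05 (-0.29 to 0.40), against 0.78 (0.31 to 1.27) in the GE-SCJ and 0.87 (0.45 to 1.31) in the stomach. At E15, stomach fibroblast-type cells were above esophageal ones by 0.56 (0.34 to 0.77) on the log2 scale. At E19 this was 0.19 (0.03 to 0.36), and in the pup the sign was reversed, at -0.26, with an interval that spanned 0. Summed fibroblast markers in these G1 cells were at 24414 CPM at E15 and 23918.5 in the pup in the esophagus. They were at 13422 and 24465.5 CPM in the GE-SCJ, and at 9462 and 18513 in the stomach. Their part in the fibroblast-type values of Dnmt3a and the other members was not tested.

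Smooth muscle had Dnmt3a levels like those of fibroblast-type cells. In the esophagus it held 144 CPM at E15, 133 at E19 and 61.1 (24.6 to 126) at the pup stage, where the pup value rests on 7 UMIs in 22 cells. In the GE-SCJ it held 188, 130 and 135 CPM, and in the stomach 224, 149 and 118. The log2 ratio of E15 over pup was 1.06 (0.03 to 2.31), 0.47 (0.05 to 0.89) and 0.91 (0.49 to 1.35) in turn, so E15 was the higher stage in each region.

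In epithelium, Dnmt3a was lower than in fibroblast-type cells of the same region and stage, and it fell at each later stage measured. Stomach columnar G1 cells held Dnmt3a at 132 CPM (108 to 158) at E15, 78.4 (70.3 to 87.1) at E19 and 40.5 (36.5 to 44.7) in the pup, with no overlap between stages and a log2 ratio of E15 over pup of 1.71 (1.39 to 2.02). GE-SCJ columnar cells held 92.8 CPM (82.7 to 104) at E19 and 45.6 (40.6 to 51.0) in the pup. Esophageal squamous cells held 96.8 CPM (70.6 to 129) at E15, 64.7 (51.1 to 80.9) at E19, 42.5 (29.3 to 59.7) in the pup and 14.8 (10.2 to 20.7) in the adult. Those of the GE-SCJ held 74.6 (52.3 to 103), 60.8 (40.1 to 88.4), 32.6 (17.8 to 54.8) and 12.9 (7.37 to 21.0). Adult squamous cells were the lowest in both regions, and E15 exceeded them by 2.70 (2.03 to 3.38) in the esophagus and 2.48 (1.62 to 3.41) in the GE-SCJ on the log2 scale. The log2 ratio of E15 over pup was 1.18 (0.50 to 1.86) in the esophagus and 1.13 (0.23 to 2.10) in the GE-SCJ. With the larger of the 2 squamous labels alone, the esophageal ratio was 0.46.

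Fibroblast markers inside the epithelial labels moved with part of these values. Their summed level in G1 cells, over 5 genes, was 422 CPM at E15 and 174 in the pup in stomach columnar cells, and 1546 and 273 CPM in esophageal squamous cells. In GE-SCJ squamous cells it went the other way, with 193 CPM at E15 and 329 in the pup, while Dnmt3a was 74.6 and 32.6 CPM. Columnar markers in squamous cells were at 1695 CPM at E15 and 820 in the pup in the esophagus, and at 2397 and 916 in the GE-SCJ. Mesothelial markers were at 8.60 and 520 CPM in the esophagus and at 4.15 and 62.9 in the GE-SCJ. The squamous cells' own markers were at 7826 and 6628 CPM in the esophagus and at 6825 and 4831 in the GE-SCJ. The part of these marker levels in the members' values in epithelium was not tested.

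Dnmt3b, the other de novo enzyme, was low in G1 cells, and most groups held few UMIs. It ranged from 1.77 to 10.4 CPM in fibroblast-type cells before the adult stage, and from 2.98 to 6.67 CPM in columnar cells. Of the 9 comparisons of E15 with pup, 1 had 20 UMIs, and its interval spanned 0. GE-SCJ columnar G1 cells held 6.67 CPM at E19 and 3.31 in the pup, from 22 UMIs each, a log2 ratio of 1.01 (0.11 to 1.91). Those of the stomach held 2.98 and 3.29 CPM. In all phases, the columnar ratio of E15 over pup was 2.31 (1.38 to 3.21) in the GE-SCJ and 1.60 (0.95 to 2.25) in the stomach. At E19, stomach fibroblast-type cells held 26 UMIs (7.47 CPM) and esophageal ones 9 UMIs (1.77 CPM), a log2 ratio of 1.98 (0.89 to 3.19).

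Tet1 had the largest contrast between stroma and epithelium. In G1 fibroblast-type cells it stood at 56.9 CPM (47.0 to 68.3) at E15, 50.7 (44.7 to 57.3) at E19, 46.3 (30.5 to 67.4) in the pup and 12.5 in the adult, from 2 UMIs, in the esophagus. In the GE-SCJ it stood at 58.6, 51.4 and 41.5 CPM, and in the stomach at 95.2 (80.7 to 112), 70.1 (61.6 to 79.5) and 29.5 (15.3 to 51.6). The stomach had the clearest difference between stages, with a log2 ratio of E15 over pup of 1.58 (0.77 to 2.52), against 0.26 in the esophagus and 0.43 in the GE-SCJ with intervals that spanned 0. Stomach exceeded esophagus by 0.74 (0.38 to 1.10) at E15 and 0.47 (0.21 to 0.73) at E19, and lay below it in the pup, at -0.59 (-1.66 to 0.41).

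In smooth muscle, Tet1 was at 70.6 CPM at E15 and 91.5 at E19 in the esophagus, with a single UMI in pup cells and no UMI in adult cells. In the GE-SCJ it was at 51.1, 58.3 and 38.6 CPM, and in the stomach at 46.5, 42.0 and 20.2. Unlike in fibroblast-type cells, the esophagus was above the stomach at E19, with a log2 ratio of stomach over esophagus of -1.13 (-1.82 to -0.43).

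Epithelium held little Tet1 after E15. Stomach columnar cells were at 24.9 CPM (15.4 to 38.0) at E15, 5.27 (3.34 to 7.91) at E19 and 2.02 (1.22 to 3.15) in the pup, a log2 ratio of E15 over pup of 3.62 (2.68 to 4.57), the largest of any member and label in G1 cells. The 21, 23 and 19 UMIs behind these values came from 44, 200 and 297 cells. Esophageal squamous cells were at 19.4, 10.1 and 9.02 CPM from E15 to the pup and at 2.17 (0.71 to 5.07) in the adult. Those of the GE-SCJ were at 14.5, 13.5 and 2.33 CPM, with 0 UMIs in 62 adult cells, where 3 counts would be 2.42 CPM. Immune cells were also low, between 0 and 8.21 CPM in 4 groups, and neural cells were high, between 50.1 and 73.8 CPM in 7 groups.

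Tet2 was the most even of the Tet genes. It ranged from 38.9 to 74.3 CPM in fibroblast-type G1 cells before the adult stage and from 39.8 to 59.3 CPM in columnar cells. All 9 log2 ratios of E15 over pup, from -0.14 to 0.56, had intervals that spanned 0. In esophageal squamous cells it stood at 55.9, 42.0 and 52.8 CPM at E15, E19 and in the pup, and at 23.9 (18.0 to 31.1) in the adult.

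Among fibroblast-type, smooth muscle, columnar and squamous cells, Tet3 was high in squamous cells and, in the pup, in smooth muscle. Some neural and immune G1 groups held more. Neural groups ranged from 40.1 CPM (stomach pup, from 4 UMIs) to 169 (stomach E19). Immune groups ranged from 104 (esophagus pup) to 195 (GE-SCJ pup). Esophageal squamous G1 cells held 140 CPM (108 to 178) at E15, 132 (112 to 154) at E19, 113 (90.9 to 140) in the pup and 89.6 (77.8 to 103) in the adult, and GE-SCJ squamous cells held 124, 151, 119 and 89.5 CPM. Stomach columnar cells held 101 (80.5 to 125), 66.4 (59.0 to 74.5) and 59.7 (54.9 to 64.8) CPM, and the GE-SCJ ones 67.6 and 79.6 CPM at E19 and in the pup. Fibroblast-type cells lay between 56.6 and 85.8 CPM up to the pup. Up to the pup, each squamous group was above the fibroblast-type group of its region. In smooth muscle, the pup was the highest stage, with 142 CPM (113 to 177) in the GE-SCJ and 145 (115 to 181) in the stomach, against 96.3 and 90.0 at E15. The log2 ratio of E15 over pup was -0.56 (-1.05 to -0.07) and -0.69 (-1.19 to -0.19). In the esophagus, 13 UMIs in the pup gave 113 CPM (60.4 to 194), against 93.6 (71.6 to 120) at E15. Markers moved with stage in these smooth muscle G1 cells. Fibroblast markers were at 3438 CPM at E15 and 7514 in the pup in the GE-SCJ, and at 3224 and 8658 in the stomach. Smooth muscle markers were at 22444 and 20772 CPM in the GE-SCJ and at 24868 and 18794 in the stomach, and erythroid markers were at 1213 and 181 CPM and at 1670 and 116 CPM in turn. In esophageal smooth muscle, fibroblast markers were at 3279 and 2853 CPM. Their part in the smooth muscle values of Tet3 and the other members was not tested.

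**Figure D3:**
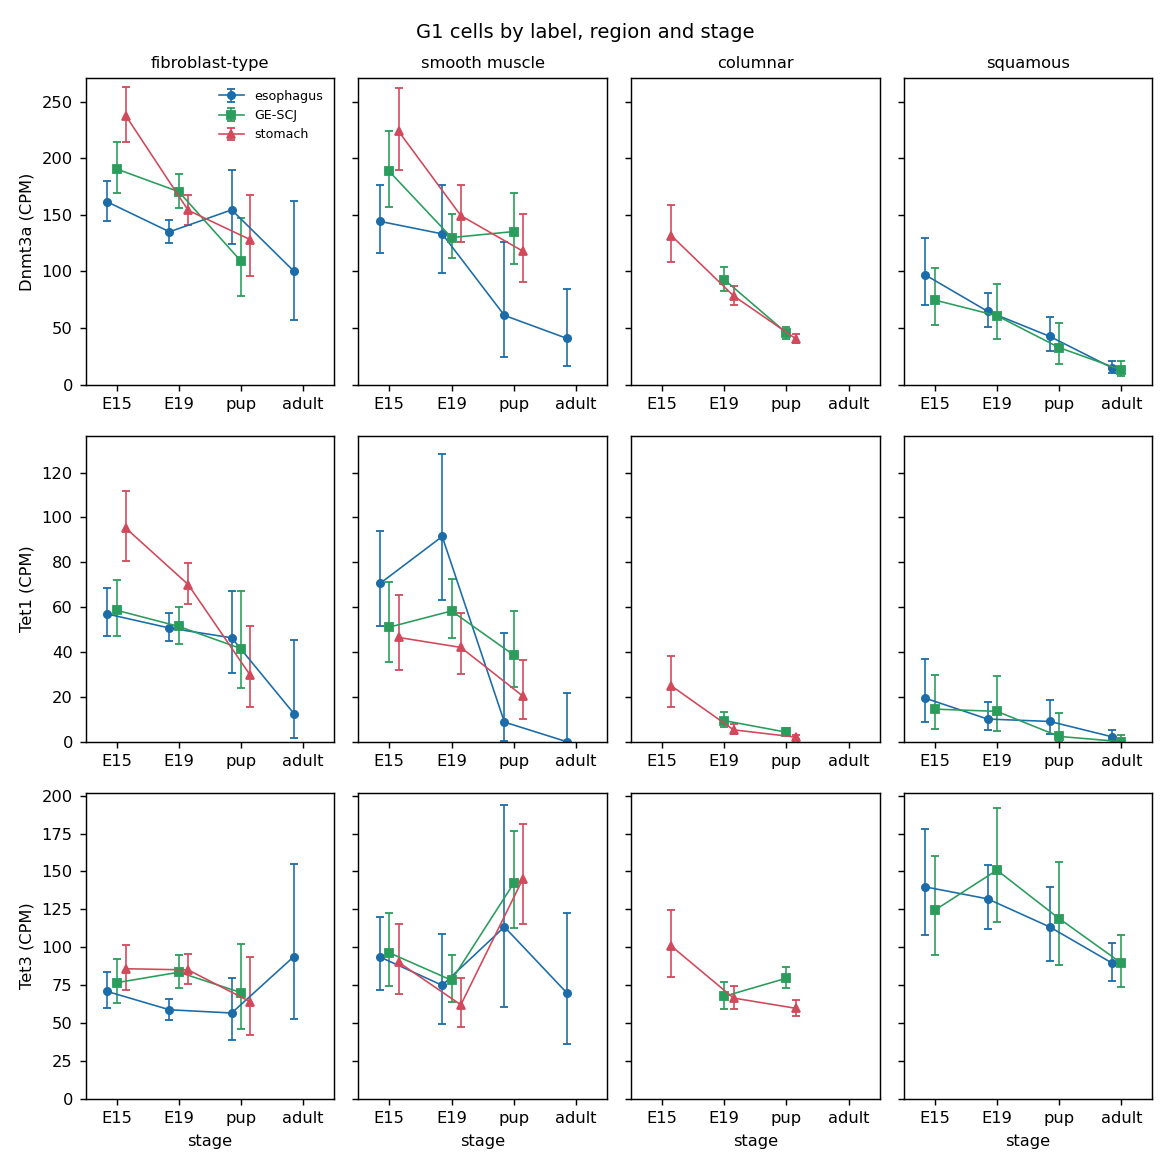
Dnmt3a, Tet1 and Tet3 in G1 cells (vertical axis: CPM, horizontal axis: stage) of the fibroblast-type, smooth muscle, columnar and squamous labels. Blue circles are esophagus, green squares GE-SCJ and red triangles stomach, each a single pooled sample with its 95% Poisson interval. Columnar Tet1 lies at 24.9 CPM at E15 and at 9.40 or less afterwards, while Tet3 lies at 89.5 CPM or more in every squamous group.

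The mix of Tet UMIs therefore differed between labels. Tet1 made up 20 to 38.4% of the UMIs of the 3 Tet genes in fibroblast-type G1 cells up to the pup, 2.0 to 14.3% in columnar cells and 0 to 9.0% in squamous cells. Tet3 made up 33.3 to 46.6% in those fibroblast-type groups, 53.0 to 58.8% in columnar cells and 64.7 to 77.4% in squamous cells. In squamous cells, Tet3 was thus the main Tet gene by UMIs at each stage.

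Fibroblast-type and epithelial G1 cells of the same stage were compared in 12 pairs, within a region. Dnmt3a was higher in fibroblast-type cells in 12 of 12, with log2 ratios from 0.71 to 2.81, each with an interval above 0. Tet1 was higher in 10 of the 10 pairs with at least 20 UMIs, with ratios from 1.42 to 3.91. Ezh2 was higher in 7 of 12 pairs and Ezh1 in 6 of 12, Dnmt1 in 5 of 11, and Tet3 in 2 of 12. Tet3 was higher in epithelium in 6 of 12 pairs, all of them squamous, and Uhrf1 in 1 of 7. Over all members, fibroblast-type cells were higher in 47 of 101 pairs (46.5%) and epithelium in 7 (6.93%), where the shares over all genes were 32.6% and 16.8%. Columnar cells had a higher depth, with a median of 18744.5 to 27784 UMIs in these G1 groups, and its part in the comparison was not tested.

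Columnar and squamous G1 cells were compared in 5 pairs, stomach against esophagus or within the GE-SCJ. Tet3 was higher in squamous cells in 4 of 5, with log2 ratios of columnar over squamous from -1.17 to -0.60. The E15 pair, at -0.48 (-0.96 to 0.01), had an interval that spanned 0. Ezh2 was higher in squamous cells in 2 of 5 pairs, and Tet1 and Hells in 1 of 5 each, while Uhrf1 was in 1 of 2. Dnmt3a was higher in columnar cells in 1 of 5. In sum, squamous cells were higher in 9 of 45 pairs (20%) and columnar cells in 1 (2.22%), where the shares over all genes were 16.3% and 18.1%.

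Ezh2 was higher at E15 than in the pup in most G1 comparisons. In fibroblast-type cells it stood at 57.9, 41.1 and 32.6 CPM at E15, E19 and pup in the esophagus, with 18.8 CPM in the adult from 3 UMIs. In the GE-SCJ it stood at 65.9, 55.1 and 41.5 CPM, and in the stomach at 75.1, 55.4 and 41.8. Each region descended through the 3 stages, with log2 ratios of E15 over pup of 0.77 (0.08 to 1.53), 0.59 (-0.16 to 1.43) and 0.77 (0.05 to 1.58). In smooth muscle, the ratio was 1.51 (0.60 to 2.52) in the stomach, where levels were 66.8, 35.7 and 22.1 CPM, and its interval spanned 0 in the other two regions.

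Epithelial Ezh2 had a similar course. Stomach columnar cells held 47.4 CPM (33.9 to 64.5), 31.6 (26.6 to 37.4) and 22.4 (19.5 to 25.7), a log2 ratio of E15 over pup of 1.11 (0.59 to 1.60). GE-SCJ columnar cells held 41.8 (35.2 to 49.4) at E19 and 18.3 (15.2 to 21.9) in the pup, a log2 ratio of 1.19 (0.83 to 1.55). Esophageal squamous cells held 77.4 (54.2 to 107) at E15, 25.2 (17.0 to 36.0) at E19, 34.8 (22.9 to 50.6) in the pup and 17.8 (12.8 to 24.2) in the adult, and the E15 group did not overlap the other stages. The log2 ratio of E15 over pup was 1.14 (0.39 to 1.90), or 0.25 with the larger squamous label alone. In the GE-SCJ, squamous cells held 58.0, 27, 21.0 and 16.1 CPM, a log2 ratio of E15 over pup of 1.37 (0.29 to 2.57).

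Neural cells held the most Ezh2 in G1. The E15 groups were at 164 CPM (118 to 221) in the GE-SCJ, 145 (112 to 186) in the stomach and 135 (104 to 173) in the esophagus. At E19 they were at 102 CPM in the GE-SCJ and 85.8 in the stomach, and in the pup at 73.8 in the esophagus and 20.1 in the stomach, from 7 and 2 UMIs. With regions summed, E15 was above the pup by 1.56 (0.75 to 2.50) on the log2 scale, from 169 and 12 UMIs. The ratio was -0.19 (-0.73 to 0.39) for Dnmt3a and -0.42 (-1.18 to 0.41) for Tet1, with 0 inside both intervals.

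Ezh1 went the other way from Ezh2 in the stroma. In fibroblast-type G1 cells it stood at 14.4 CPM (9.62 to 20.6) at E15, 21.4 (17.6 to 25.8) at E19, 44.6 (29.1 to 65.3) in the pup and 50.1 (21.6 to 98.6) in the adult in the esophagus. In the GE-SCJ it stood at 19.3 (12.9 to 27.7), 24 (18.7 to 30.3) and 41.5 (23.7 to 67.4) CPM, and in the stomach at 19.4 (13.2 to 27.6), 23.6 (18.7 to 29.2) and 44.3 (26.2 to 70.0). The pup was the highest of these 3 stages in all 3 regions, and the log2 ratio of E15 over pup was -1.64 (-2.44 to -0.83), -1.14 (-2.05 to -0.19) and -1.22 (-2.09 to -0.32). With regions summed, the pup was 2.52-fold higher than E15. Smooth muscle had 7.30 CPM (2.37 to 17.0) at E15, 21.4 at E19 and 38.6 (24.2 to 58.5) in the pup in the GE-SCJ, a log2 ratio of -2.21 (-3.79 to -0.87). In the stomach it had 13.1, 9.46 and 29.4 CPM, with a log2 ratio of -1.11 (-2.40 to 0.10). Esophageal smooth muscle had 10.7 CPM at E15, a single UMI in pup cells and 75.8 CPM (40.4 to 130) in adult cells, a log2 ratio of E15 over adult of -2.73 (-4.20 to -1.38).

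In stomach columnar cells and in squamous cells, no such difference left the counting error. Columnar Ezh1 in the stomach stood at 20.1 CPM (11.7 to 32.3) at E15, 13.7 at E19 and 13.5 (11.2 to 16.1) in the pup, a log2 ratio of 0.65 (-0.15 to 1.37). In esophageal squamous cells it stood at 19.4, 15.1, 16.7 and 20 CPM from E15 to the adult, and in those of the GE-SCJ at 29, 11.3, 18.7 and 16.1. The ratios of E15 over pup were 0.25 and 0.57, with intervals that spanned 0. GE-SCJ columnar cells leaned the way of the stroma, with 12.4 CPM at E19 and 17.6 in the pup in G1, a log2 ratio of -0.48 (-1.02 to 0.04). In all phases they had 8.31 CPM at E15, from 11 UMIs, and 17.7 in the pup, a ratio of -0.98 (-1.96 to -0.13).

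**Figure D4:**
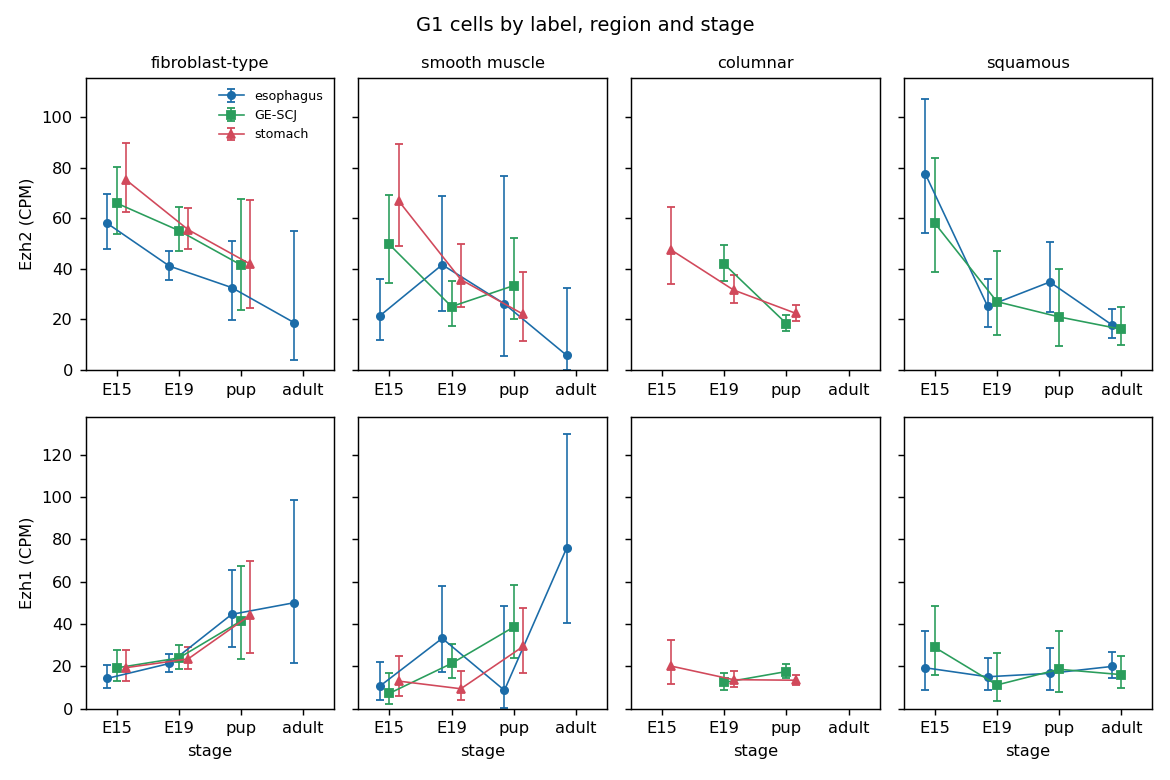
Ezh2 and Ezh1 in G1 cells (vertical axis: CPM, horizontal axis: stage) of the same 4 labels. Blue circles are esophagus, green squares GE-SCJ and red triangles stomach, each a single pooled sample with its 95% Poisson interval. In fibroblast-type cells Ezh2 lies between 57.9 and 75.1 CPM at E15 and at 41.8 or less in the pup, where Ezh1 lies between 41.5 and 44.6 CPM.

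The share of Ezh1 in the UMIs of both PRC2 enzymes is on a scale that does not depend on library size. It can rise through more Ezh1 or through less Ezh2. In G1 fibroblast-type cells it was 19.9% (13.7 to 27.3) at E15, 34.3% (29.1 to 39.8) at E19 and 57.8% (42.2 to 72.3) in the pup in the esophagus. It was 22.7%, 30.3% and 50% in the GE-SCJ and 20.5%, 29.8% and 51.4% in the stomach. In smooth muscle it was 12.8%, 46.0% and 53.7% in the GE-SCJ and 16.4%, 20.9% and 57.1% in the stomach. In each of these 5 groups, the E15 interval lay below that of the pup. Esophageal smooth muscle had 33.3% (14.6 to 57.0) at E15 and 44.4% (25.5 to 64.7) at E19, and no pup share is given. In columnar cells it was 29.8%, 30.3% and 37.6% in the stomach, and 22.9% (17.0 to 29.8) at E19 and 49.0% (42.5 to 55.5) in the pup in the GE-SCJ. Esophageal squamous cells had 20% (9.58 to 34.6) at E15 and 52.9% (41.9 to 63.7) in the adult. Neural cells at E15 had the lowest shares, from 7.35 to 8.70%.

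Thinning each G1 cell to 5000 UMIs gives the share of cells with a UMI at equal depth. In stomach fibroblast-type cells, Tet1 was found in 28.8% of 160 cells (21.9 to 36.4) at E15, 26.2% of 362 at E19 and 7.32% of 41 (1.54 to 19.9) in the pup, and in 48.4%, 36.4% and 10.8% at the cells' own depth. In stomach smooth muscle it was found in 25.5% of 55 cells (14.7 to 39.0) at E15 and 4.17% of 48 (0.51 to 14.3) in the pup. Dnmt3a was found in 44.2% of 43 stomach columnar cells (29.1 to 60.1) at E15 and 21.5% of 288 (16.9 to 26.7) in the pup. Ezh2 was found in 38.2% of 34 esophageal squamous cells (22.2 to 56.4) at E15 and 9.38% of 64 (3.52 to 19.3) in the pup. These 4 of 90 pairs were those whose E15 interval lay above that of the pup, where 2.74% of pairs did over all genes with at least 500 UMIs. As a low reference, Tet1 had no UMI in 22 thinned immune cells of the GE-SCJ at E19, with an upper bound of 15.4%, and a UMI in 2.78% of the 36 cells at their own depth. Thinning left out 33 of 74 pup fibroblast-type cells of the stomach, against 24 of 184 at E15. In stomach smooth muscle it left out 63 of 111 pup cells, against 2 of 57 at E15. It also left out 110 of 143 pup fibroblast-type cells of the esophagus, but 9 of 297 pup columnar cells of the stomach. The stromal pup shares thus describe the deeper cells.

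Partner genes of both pathways were counted in the same 9 comparisons of G1 cells, with the rule of 100 UMIs and a 2-fold difference. Of 14 partners in DNA methylation, 37 pairs of gene and comparison reached 100 UMIs, 5 were lower in the pup and 1 was higher. Of 9 PRC2 partners it was 31 pairs with 3 lower, and of 20 genes of Polycomb repressive complex 1 (PRC1) it was 44 with 7 lower, none higher in either list. The 2 demethylases of the Polycomb mark, Kdm6a and Kdm6b, had 5 pairs, 1 of them lower. For the members it was 28 pairs with 5 lower, and over all genes 12.9% were lower and 9.33% higher. In all cells of the same 9 comparisons, the members had 27 of 53 pairs lower, the DNA methylation partners 22 of 74, the PRC2 partners 11 of 52 and PRC1 3 of 76, where 14.7% were over all genes. Higher in the pup were 0, 1, 0 and 2 pairs in that order, where 8.56% were over all genes. Here too, Ezh1 did not reach 100 UMIs in any comparison of the stroma, so the rule could not call it there. The list medians of the log2 ratio in G1 cells were between 0.22 and 0.62, beside 0.10 to 0.55 for all genes.

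Among the partners, Trim28, a corepressor that brings silencing factors to transposons and imprinted sites, was higher at E15 in all 6 comparisons in which it reached 100 UMIs. It stood at 141 and 94.3 CPM at E15 and pup in esophageal fibroblast-type cells, at 158 and 66.4 in those of the stomach, and at 145 and 60.0 in stomach columnar cells. Its log2 ratios were 0.56 to 1.28. Mbd3, a subunit of the NuRD complex, had ratios of 0.39 to 0.84 in 6 comparisons. Usp7, a deubiquitinase of Dnmt1, had a median of -0.12, with ratios of both signs. Of the PRC2 partners, the histone chaperone subunits Rbbp7 and Rbbp4 had medians of 0.53 and 0.28 over 8 comparisons. Cbx6, a PRC1 reader of the Polycomb mark, was higher in the pup in fibroblast-type cells, with 139 and 220 CPM at E15 and pup in the esophagus, 122 and 236 in the GE-SCJ and 143 and 271 in the stomach. In stomach columnar cells it was the other way, with 94.8 CPM at E15 and 47.4 in the pup. Phc3, a PRC1 scaffold, had a median of 0.07.

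Genes whose levels were most like those of each member were ranked by Pearson's r of log2(CPM + 10) over the 54 groups of all cells, among 11672 genes with at least 500 UMIs. The groups share tags, 1 library and depth, so r is a description. Replication genes led for Uhrf1 (Pclaf 0.942, Mcm7 0.940, Mcm2 0.927) and Dnmt1 (Rfc2 0.884, Pcna 0.868, Cdc6 0.868), and Hells was nearest to Uhrf1 (0.915), Mcm5 (0.908) and Anp32b (0.904). Ezh2 was nearest to Hnrnpa1 (0.886), Nasp (0.883) and Hnrnpa2b1 (0.878). Dnmt3a was nearest to Mdk (0.849), Maged1 (0.839) and Tceal9 (0.839), and Tet1 to Epm2aip1 (0.878), Ttc3 (0.871) and Rhobtb3 (0.871). For Ezh1 it was Parp3 (0.731), Osmr (0.689) and Sod3 (0.682). For Tet2, Tet3 and Dnmt3b the nearest gene had an r of 0.633 (Wdr91), 0.625 (Ptpn1) and 0.698 (Dcps). Among the members, Dnmt3a and Tet1 had an r of 0.82, Uhrf1 and Ezh2 0.85, and Ezh1 and Ezh2 -0.48. Against Mki67, a marker of cycling, r was 0.84 for Uhrf1, 0.71 for Ezh2, -0.02 for Dnmt3a, -0.04 for Tet1 and -0.53 for Ezh1.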

How the data were processed

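Libraries were made with the 10x Genomics 3′ kit, and cells were tagged by CellPlex. The authors counted UMIs with Cell Ranger 6.1.1 on mm10, assigned cells to tags, dropped barcodes outside set limits for genes, UMIs and mitochondrial RNA as potential doublets or poor cells, and deposited raw counts. The mitochondrial percent of each cell and its cell cycle score, with the Phase it gives, were computed by the authors in Seurat and deposited beside the label and the tag. No further doublets were removed.

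Cells were grouped by label, region and stage of their tag. UMIs were summed over a group and given as CPM with exact Poisson intervals. Log2 ratios had 1 UMI added to each sum and exact conditional intervals, and shares of cells had exact binomial (Clopper-Pearson) intervals. All are at 95% and cover counting error only. The 10 members, the partner lists and the comparisons were chosen with earlier results of these data known. Partners are named by the 3 largest median absolute ratios in each list, among genes with 100 UMIs in at least 5 comparisons, and like genes by the 3 highest correlations. Thinning used seed 1. The score genes are not given in the sources used here. Phase matched the sign of the deposited scores in all 7808 cells, and in 7547 cells (96.7%) when scored anew without the members. Ratios and their intervals were tried on Poisson counts drawn from a pooled profile, which hold no spread between cells. For thinning, random draws were checked for their expected mean alone. Promoter windows are from RefSeq (GRCm38.p6). Alternatives changed the phase, cell and gene filters, library size, fold, depth and squamous labels. Versions were pandas 2.3.3, numpy 2.4.6, matplotlib 3.10.9, scipy 1.17.1 and Python 3.11.15.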

Additional observations from a re-analysis of the deposited data

Results flagged for a closer look

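There were 3 differences between labels in the median log2 ratio of E15 over pup in G1 cells in which every region of a label went one way and every region of another label the opposite way. Labels with at least 2 regions were compared, for genes with at least 20 UMIs over both stages in every region, which leaves out columnar cells, Ezh1 in smooth muscle and Dnmt3b. None of these differences was tested, because a region and stage was pooled into 1 sample. Neither the number of label pairs that could meet this rule nor the share over all genes is given. The 3 differences therefore cannot be set against a background. For Tet3, the fibroblast-type median was above that of smooth muscle by 0.85 on the log2 scale. Tet3 in smooth muscle was higher in the pup in all 3 regions, though the interval of the esophagus spanned 0. The Tet3 median of smooth muscle minus that of squamous cells was -0.74. Every single Tet3 ratio of fibroblast-type and squamous cells had an interval that spanned 0. For Ezh1, the fibroblast-type median minus the squamous median was -1.63, with the pup higher in the 3 fibroblast-type regions and E15 higher in both squamous regions, where the intervals of the single ratios spanned 0. Depth differed along with these labels, since the pup had a lower median UMI count than E15 in fibroblast-type and smooth muscle cells, and its part was not tested.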

How the results depend on the processing

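Counts of members at least 2-fold lower in the pup, which were 1 in fibroblast-type cells, 1 in smooth muscle, 3 in columnar cells and 0 in squamous cells, depended most on the phase and on the UMI minimum. In all cells they were 11, 7, 5 and 4 in that order, and the pairs with E15 higher by their interval went from 26 to 47 of 90. Over all genes, the share at least 2-fold lower was 12.9% of pairs in G1 cells and 14.7% in all cells. With a minimum of 20 UMIs they were 3, 5, 7 and 5, and with none 4, 7, 7 and 12. At a fold of 1.5 they were 6, 2 and 5, and 0 in squamous cells. No share over all genes is given for these minima, this fold or the interval counts of all 90 pairs. These counts therefore cannot be set against a background. Thinned to 2000 UMIs, which brings fewer genes to 100 UMIs, all of them were 0, 9 pairs had E15 higher, and 3 in place of 4 members were at least 2-fold higher in S cells. G1 cells with no UMI of 6 cycle genes gave 2 in fibroblast-type and 1 in columnar cells, and could not be used for esophageal smooth muscle and both squamous groups, which held fewer than 20 such cells. Smooth muscle had 0 after a filter of 1000 UMIs and 10% mitochondrial UMIs, or when the 1% of cells with the most UMIs were left out. Its single call is Dnmt3a in the esophagus, from 7 UMIs in the pup. Shares of cells with E15 above the pup numbered 4 at 5000 UMIs, 33 at the cells' own depth and 2 at 2000 UMIs. The share over all genes, 2.74%, was taken at 5000 UMIs, and none is given at the other depths.

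Of the recomputed single ratios and levels, 672 moved by less than their counting interval and 33 moved by more, 18 of these after thinning to 2000 UMIs and 8 in all cells. None changed sign among the ratios whose interval left 0. The sum of 3 regions was added after seeing the data. Leaving out adult-tagged cells with 5 or more UMIs of H19, a gene of fetal tissue, left esophageal squamous Dnmt3a at 13.8 CPM and fibroblast-type Ezh1 at 45.7 CPM in the adult. No paired analysis was possible because each region and stage is 1 pooled sample. Depth limits most Uhrf1, Hells, Dnmt3b and adult stromal values, which rest on a few UMIs.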

Other observations

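Labels with few groups held levels of the same order. In all cells, immune groups had Dnmt1 between 45.1 and 141 CPM and Tet3 between 75.4 and 192 CPM in 8 groups, and Tet1 at 22.9 CPM or less. Immune G1 cells, with regions summed, held more Dnmt3a at E15 than in the pup, by 1.10 (0.19 to 2.07) on the log2 scale, from 30 and 15 UMIs. Each E15 region held fewer than 20 immune G1 cells, so this sum joins groups left out above. Ezh1 in the same immune G1 cells had 11 and 3 UMIs and a log2 ratio of 1.73 (0.01 to 3.82), with E15 higher. Immune ratios of the other members, and the share over all genes, are not given. In the second stromal label, with regions summed, Dnmt3a was higher at E19 than in the pup by 0.65 (0.06 to 1.25), from 66 and 39 UMIs. Its groups of at least 20 cells were GE-SCJ at E19, with 65 UMIs over all phases, and stomach in the pup, with 16. These sums therefore also join groups left out above, and the mix of regions may differ between the stages. Endothelial cells in 2 groups held Dnmt3a at 44.0 and 60.5 CPM and Ezh2 at 87.9 and 118 CPM, over all phases. In 20 endothelial G1 cells of the pup and 20 of the adult, with regions summed, Ezh1 had 5 and 9 UMIs and a log2 ratio of pup over adult of -1.55 (-3.30 to 0.05).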
